A study of Apis mellifera with 96 samples.

Results

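Workers of 1 honey bee colony, Apis mellifera colony 122, were compared between day 26 and day 7 in 16 whole-bee libraries, chosen by the colony and day in their titles from the 93 libraries with a column in the count table. The 4 groups of 4 libraries were foragers at day 7, nurses at day 7, foragers at day 26 and nurses at day 26. All bees were wild type (WT) and untreated. They had been put as 1-day-old adults, together with bees of 5 other origin colonies, into 3 nuclear hives that already had queens and honey, and were caught on the named day and frozen. The title of the series ties its aim to the life history of workers and their susceptibility to the insecticide imidacloprid. Neither the number of bees in a library nor the hive of each bee is labelled, so p-values describe only how much these libraries vary. Age and day of capture cannot be told apart. The measurement was TagSeq, which sequences short pieces close to the 3' ends of transcripts, and the deposited values are whole-number counts per gene. Levels are given as CPM, counts scaled to a common library size, and the libraries of a group in the order replicate 1, 2, the second library numbered 2 (2 #2) and 3. Groups are compared as log2 fold changes, day 26 minus day 7, averaged over foragers and nurses unless 1 role is named.

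A worker bee changes its tissues and its tasks over its adult weeks. In a typical hive young workers nurse: their head glands make royal jelly proteins for the brood, and their fat body makes vitellogenin. Older workers forage, fly and turn nectar into honey with enzymes such as alpha-glucosidase. The cuticle of a newly emerged adult goes on hardening in the first days, the venom gland fills early in adult life, and flight muscle depends on the respiratory chain of its mitochondria. Here both roles were sampled at both days, so the day comparison holds role constant.

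Some of the 16 libraries stood apart and are described before the results. Counts on genes ran from 197805 to 1886518 at day 7 and from 819374 to 1771088 at day 26. The lowest was replicate 3 of foragers at day 7, whose next deeper library in colony 122 held 819374. This shallow library had 7070 genes with a count, against 8252 to 8826 in the others, and 3 counts in it stand for 15.1 CPM, against at most 3.86 CPM elsewhere. A pair of day 26 libraries numbered 2 went against their role. Mrjp3, a royal jelly protein of the nurse gland, held 170.1, 14317, 973 and 2987 CPM in foragers at day 26 and 26430.1, 175, 14152 and 16715 in nurses at day 26. The forager library numbered 2 thus lay among the nurses and the nurse library numbered 2 among the foragers. At day 7 the roles did not overlap in Mrjp3, with 455, 244, 201 and 678 CPM in foragers and 16495, 10112, 2188 and 23936 in nurses. Vg, vitellogenin, told the same pair apart, at 2704 CPM in the library labelled forager and 105 in the library labelled nurse. Both held the cuticle transcript Apd-1 at the level of the other day 26 libraries (5.21 and 0 CPM), and calls that were lost without them are named as such. Whether the labels of this pair were exchanged was not tested. They were kept as labelled. An exchange would alter each value given for 1 role at day 26, the values averaged over both roles and the interaction of role and day. Lastly, the nurse libraries 2 #2 and 3 of day 26 were nearly alike. Their chi-square per gene was 1.52, above what counting noise alone gives, where all other pairs within a group of colony 122 gave 6.82 to 53.1. The labels list them as separate samples and they were counted so. Whether they are 2 libraries of 1 RNA, which would leave 3 samples in that group, was not tested, and the counts of calls are also given with the pair summed.

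**Figure D1:**
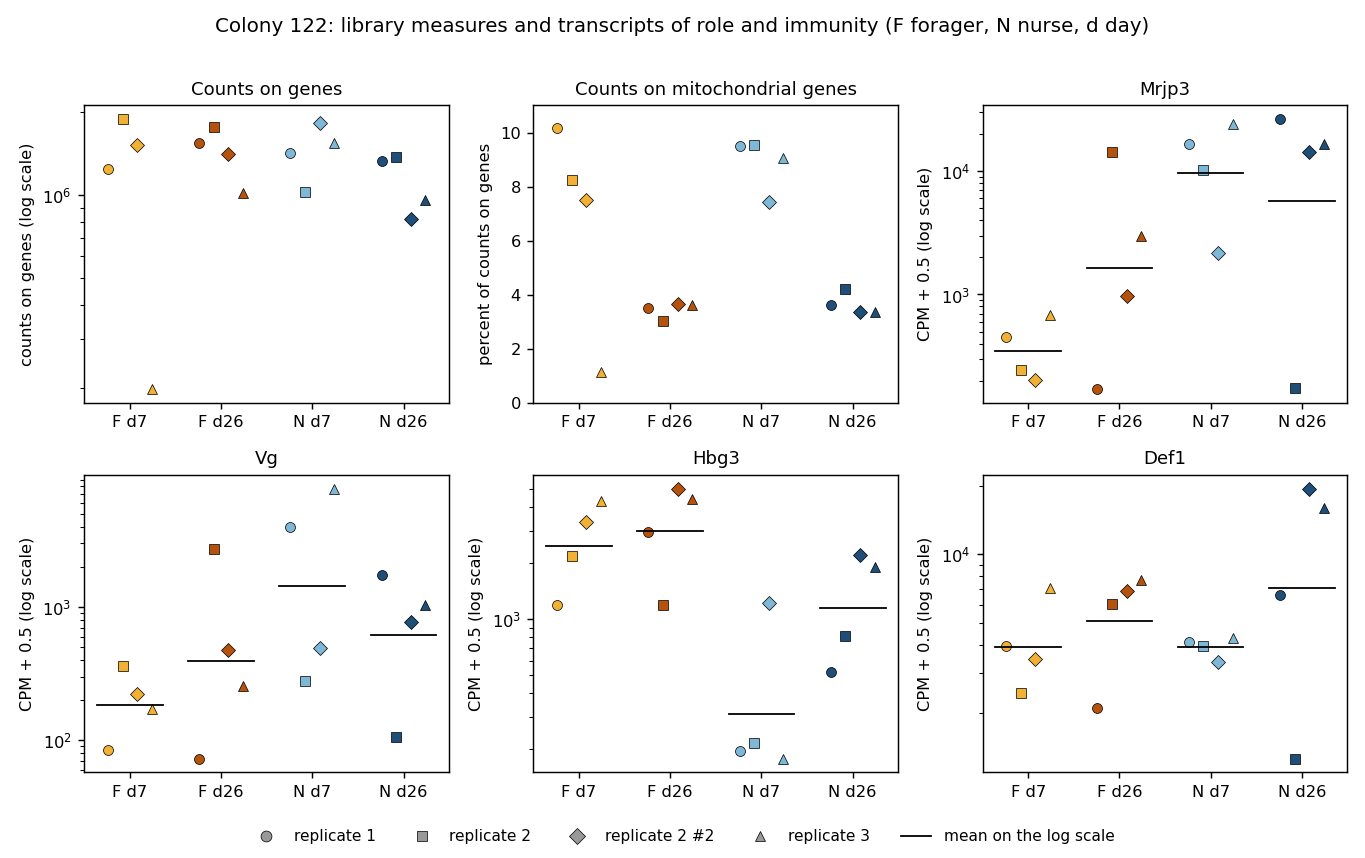
Each point is 1 library of colony 122 (F forager, N nurse, d day), with counts on genes, the percent of those counts on the 13 mitochondrial genes, and the level of Mrjp3, Vg, Hbg3 and Def1 as CPM + 0.5 on a log axis, where lines are group means on the log scale. Replicate 3 of foragers at day 7 lies lowest in counts (197805) and in mitochondrial share (1.15%), and the squares at day 26 lie on the other role's side for Mrjp3 (14317 CPM in the forager, 175 in the nurse library).

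Averaged over both roles, 339 of the 6753 genes tested differed between the days at an adjusted p under 0.05, 5.02% of all genes. Lower levels prevailed, with 215 genes lower at day 26 (3.18%) and 124 higher (1.84%), and 64 of the lower and 37 of the higher ones changed more than 2-fold. These shares of all genes are the ones to set beside each count of a gene list over both roles below. Among the 32 of these genes that have a name other than a LOC number, 25 fell and 7 rose. The named falls were 20 genes of the cuticle, the respiratory chain, muscle and venom and 5 others, and the named rises were alpha-glucosidases, opsins, 1 odorant-binding protein and 2 other genes. All 8 libraries of day 26 lay below all 8 of day 7 for 15 genes (0.222%), among them Apd-1, Apd-3, Cox6c, Ndufs1 and TpnI, and above them for 4 genes (0.0592%). Within a role, all 4 libraries of day 26 lay below all 4 of day 7 for 4.99% of genes in nurses and 2.19% in foragers, and above them for 3.75% and 2.43%. Leaving out 1 library at a time gave 252 to 409 genes. A fit of the libraries of colony 122 alone gave 135 genes (28 higher, 107 lower), of which 128 are among the 339. There the filter and scaling were redone, and role and day entered without their interaction, so more than the spread differed. Calls lost in that fit are given below as lost with the spread of colony 122 alone.

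The deepest falls of all called genes, those of Apd-1 and Apd-3, were in the cuticle. Of 9 cuticle genes tested, of 27 in the table, 5 fell (Apd-1, Apd-3, Cpap3-b, Apd-2 and Cpap3-d) and 4 did not pass. Apd-1, a protein of the apidermin family found in honey bee cuticle, held 641, 208, 131 and 40.2 CPM in foragers at day 7 and 766, 432, 627 and 809 in nurses at day 7. At day 26 it held 0.569, 5.21, 3.98 and 0.932 CPM in foragers and 1.65, 0, 1.29 and 1.07 in nurses. The lowest library of day 7 was thus above the highest of day 26 in both roles. The mean of day 7 was 457 ± 299 CPM (SD, n = 8), that of day 26 1.84 ± 1.80 (SD, n = 8), and the fitted log2 fold change was -7.96 ± 0.84 (SE; adjusted p = 7.97e-11, edgeR). Its neighbour Apd-3 fell from 1467, 246, 191 and 35.2 CPM in foragers and 1409.9, 666, 802 and 410.2 in nurses to 1.14, 4.05, 5.31 and 9.32 in foragers and 9.87, 3.90, 5.15 and 4.27 in nurses. Here too the days did not overlap, and the log2 fold change was -6.91 ± 0.95 (adjusted p = 3.30e-07). Apd-2, which lies beside Apd-1 in the order of genes in the reference, kept a higher level at day 26, with 22.2, 119, 231 and 254 CPM in foragers and 387, 78.6, 247 and 281 in nurses, against 1419.8, 1129.7, 654 and 231 in foragers and 659.5, 1369, 1020.2 and 978 in nurses at day 7. Its fall was -2.24 ± 0.44 (adjusted p = 3.16e-04), and the days overlapped through the shallow forager library of day 7. In a bulk library, fewer cuticle-forming cells and less transcript in each such cell cannot be told apart.

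The chitin-binding genes Cpap3-b and Cpap3-d were lower at day 26 as well. Cpap3-b held 21.1, 9.52, 10.1 and 0 CPM in foragers and 27.1, 15.1, 18.7 and 13.4 in nurses at day 7, and 1.71, 6.37, 3.32 and 3.73 CPM in foragers and 0.823, 1.67, 3.86 and 1.07 in nurses at day 26. Its 0 is in the shallow library, where 3 counts are 15.1 CPM, and the nurses of both days did not overlap. The log2 fold change was -2.50 ± 0.42 (adjusted p = 1.32e-05). Cpap3-d changed by -0.99 ± 0.30 (adjusted p = 0.0374), and its call was lost in 14 of 24 settings, among them the fit without the pair of day 26 libraries that go against their role. The other cuticle genes did not pass: CPR13, of the Rebers-Riddiford cuticle proteins, was at 1.34 ± 0.44 (adjusted p = 0.0578) and passed as a rise in DESeq2 and without any 1 of 5 libraries, the shallow one among them, and CPR14, CPR28 and CPF2 were between -0.12 and 0.12. The median log2 fold change of the 9 was -0.99, against 0.0086 for all genes tested. The summed level of the cuticle genes was 2814 to 3549 CPM in nurses at day 7 and 533 to 1398 in nurses at day 26, and 899 to 4151 and 644 to 1234 in foragers.

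Several respiratory chain genes, encoded in the nucleus or in the mitochondrion, fell. Of 8 nuclear subunits of oxidative phosphorylation tested, 5 fell (Uqcr11, Cox6b1, Cox6c, ATP5G2 and Ndufb2) and 3 did not pass, with a median of -0.82. Uqcr11, a small subunit of complex III, held 934, 684, 603 and 1342 CPM in nurses at day 7 and 305, 218, 206 and 177 at day 26. In foragers it held 752, 874, 908 and 281 CPM at day 7 and 485, 310.3, 461 and 406 at day 26. The nurses were apart, the foragers overlapped through the shallow library of day 7, and the log2 fold change over both was -1.37 ± 0.20 (adjusted p = 6.65e-07). Cox6c, a subunit of complex IV, was the member whose 8 libraries of day 26 all lay below day 7 and passed: 2492 to 6759 CPM at day 7 and 1645 to 1987 at day 26, a change of -1.07 ± 0.18 (adjusted p = 2.36e-05). Another subunit of complex IV, Cox6b1, had means of 866 ± 321 CPM (SD, n = 8) and 359 ± 49.2 (SD, n = 8) and a change of -1.25 ± 0.18 (adjusted p = 5.45e-07). ATP5G2, a subunit of ATP synthase, changed by -0.81 ± 0.18 (adjusted p = 0.00215), and Ndufb2 of complex I by -0.57 ± 0.16 (adjusted p = 0.0190). Ndufs1, also of complex I, was not called (adjusted p = 0.104) although its libraries did not overlap, with 21.4 to 42.4 CPM at day 7 and 9.05 to 19.2 at day 26. The 5 falls also passed without 3 libraries (the shallow one and the pair against their role) and with the near-identical pair summed. The call of ATP5G2 was lost when the spread came from colony 122 alone, and that of Ndufb2 in 7 of 24 alternative settings.

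Of the 13 genes that the mitochondrial genome encodes, 4 fell (COX1, COX2, ND6 and CYTB) and 9 did not pass. Their median was -1.24, and 12 of the 13 were below 0. COX2, a core subunit of complex IV, held 15366, 11693, 10555 and 1352 CPM in foragers and 17710.5, 17531, 11586 and 14552 in nurses at day 7. At day 26 it held 4426, 3847, 4487 and 4243 CPM in foragers and 4799, 3740.4, 3732 and 3600.5 in nurses. Apart from the shallow library, each library of day 7 held more COX2 than each of day 26, and the log2 fold change was -1.57 ± 0.30 (adjusted p = 2.65e-04). COX1, of the same complex, changed by -1.08 ± 0.21 (adjusted p = 2.65e-04), ND6 of complex I by -1.73 ± 0.38 (adjusted p = 0.00146) and CYTB of complex III by -1.74 ± 0.42 (adjusted p = 0.00567). The 13 genes together took 7.82% ± 2.87 (SD, n = 8) of the counts in the younger bees, against 3.54% ± 0.34 (SD, n = 8) in the older ones, a difference of -4.28 percentage points (2-sided exact permutation test within roles, p = 0.00204, adjusted p = 0.00612 over 3 library measures). At day 7 the shares were 7.44 to 10.2% in 7 libraries and 1.15% in the shallow one, and at day 26 they were 3.04 to 4.22%, so that this library alone lay on the day 26 side. Without it the difference was -5.21 points. The share of reads not aligned was 67.6% ± 3.27 (SD, n = 8) in the younger and 70.3% ± 2.52 (SD, n = 8) in the older bees, which did not pass (exact permutation p = 0.1, adjusted p = 0.15), and its part in the mitochondrial values was not tested.

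Several troponins of muscle fell by smaller amounts. Of 8 tested, 4 troponins fell (TpnCIIa, TpnCIIb, TpnI and TpnCI) and 4 did not pass, with a median of -0.62. Troponins form the calcium switch of the thin filament, and insects express several troponin C genes. TpnI, the inhibitory subunit, held 1121 to 1482 CPM at day 7 and 489 to 1048 at day 26 with no overlap, a change of -0.58 ± 0.13 (adjusted p = 0.00215). TpnCIIa, a troponin C, held 684, 407, 507 and 545 CPM in nurses at day 7 and 352, 144, 202 and 199.8 at day 26, and in foragers 594, 364, 391 and 251 at day 7 and 255, 321, 224 and 202 at day 26. The nurses did not overlap and the foragers did, and the change was -0.97 ± 0.20 (adjusted p = 4.21e-04). TpnCIIb changed by -1.15 ± 0.25 (adjusted p = 0.00145) and TpnCI by -0.86 ± 0.21 (adjusted p = 0.00661), the latter not called with the spread of colony 122 alone. Not all troponins were lower: TpnCIIIa and TpnCIIIb were at 0.09 and 0.53, and neither passed (adjusted p = 0.901 and 0.414). The troponin C genes are related in sequence and reads that fit several places were not counted, so their levels are less certain.

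Some falls lay outside these groups. Sod2, the superoxide dismutase of mitochondria, was the 1 of 11 antioxidant genes that passed, where 5.02% of all genes did. It held 281, 231, 212 and 60.3 CPM in foragers and 406, 173, 136 and 443 in nurses at day 7. At day 26 it held 151, 146, 191 and 83.0 CPM in foragers and 141, 53.0, 56.6 and 76.9 in nurses. The change was -1.15 ± 0.25 (adjusted p = 0.00164). Its call was lost with the spread of colony 122 alone. The cytosolic Sod1 did not pass (-0.28 ± 0.10, adjusted p = 0.115). Among 7 cytosolic ribosomal protein genes, Rpl39 fell by a small amount (-0.44 ± 0.12, adjusted p = 0.0107), a call lost in 2 of 24 settings. Of called genes with a name, Wat, Adk1 and PDHB belong to no list and were picked out after their values were seen. Adk1 (an adenylate kinase) changed by -0.61 ± 0.15 and PDHB (pyruvate dehydrogenase beta subunit) by -0.60 ± 0.18, and Wat by -1.28 ± 0.26 (adjusted p = 0.00519, 0.0287 and 4.60e-04).

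Venom genes varied widely among libraries. Of 5 tested, Mcdp and Pla2 fell and Apamin, Melt and Acph-1 did not pass. Mcdp, the mast cell degranulating peptide, held 1207, 708, 615 and 1448 CPM in nurses at day 7 and 73.2, 1.67, 20.6 and 15.0 at day 26. In foragers it held 235, 630.2, 36.3 and 10.0 CPM at day 7 and 0, 179, 3.32 and 9.32 at day 26. Nurses of the days did not overlap, whereas foragers did, and the highest of the forager libraries at day 26 was the one that goes against its role. Over both roles Mcdp changed by -3.72 ± 0.85 (adjusted p = 0.00290). Pla2, the venom phospholipase, held 931, 245, 659 and 1455 CPM in nurses at day 7 and 23.9, 0, 87.5 and 113 at day 26. In foragers it held 278, 529, 31.5 and 15.1 CPM at day 7 and 1.14, 168, 5.31 and 3.73 at day 26, again highest in that same library, and the change was -3.09 ± 0.84 (adjusted p = 0.0151). Without the pair of libraries against their role both remained called. Without forager replicate 2 of day 7 the Pla2 call was lost, and both calls were lost when the spread came from colony 122 alone. Melt, melittin, the main venom peptide, held 6722, 4979.8, 4941 and 7275 CPM in nurses at day 7 and 3478, 80.9, 1867 and 2216 at day 26, and its value over both roles was -0.90 ± 0.61 (adjusted p = 0.482). Apamin was at -1.61 ± 0.67 (adjusted p = 0.170). Apamin and Mcdp are neighbours in the reference, and a count shared between neighbours could not be checked.

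**Figure D2:**
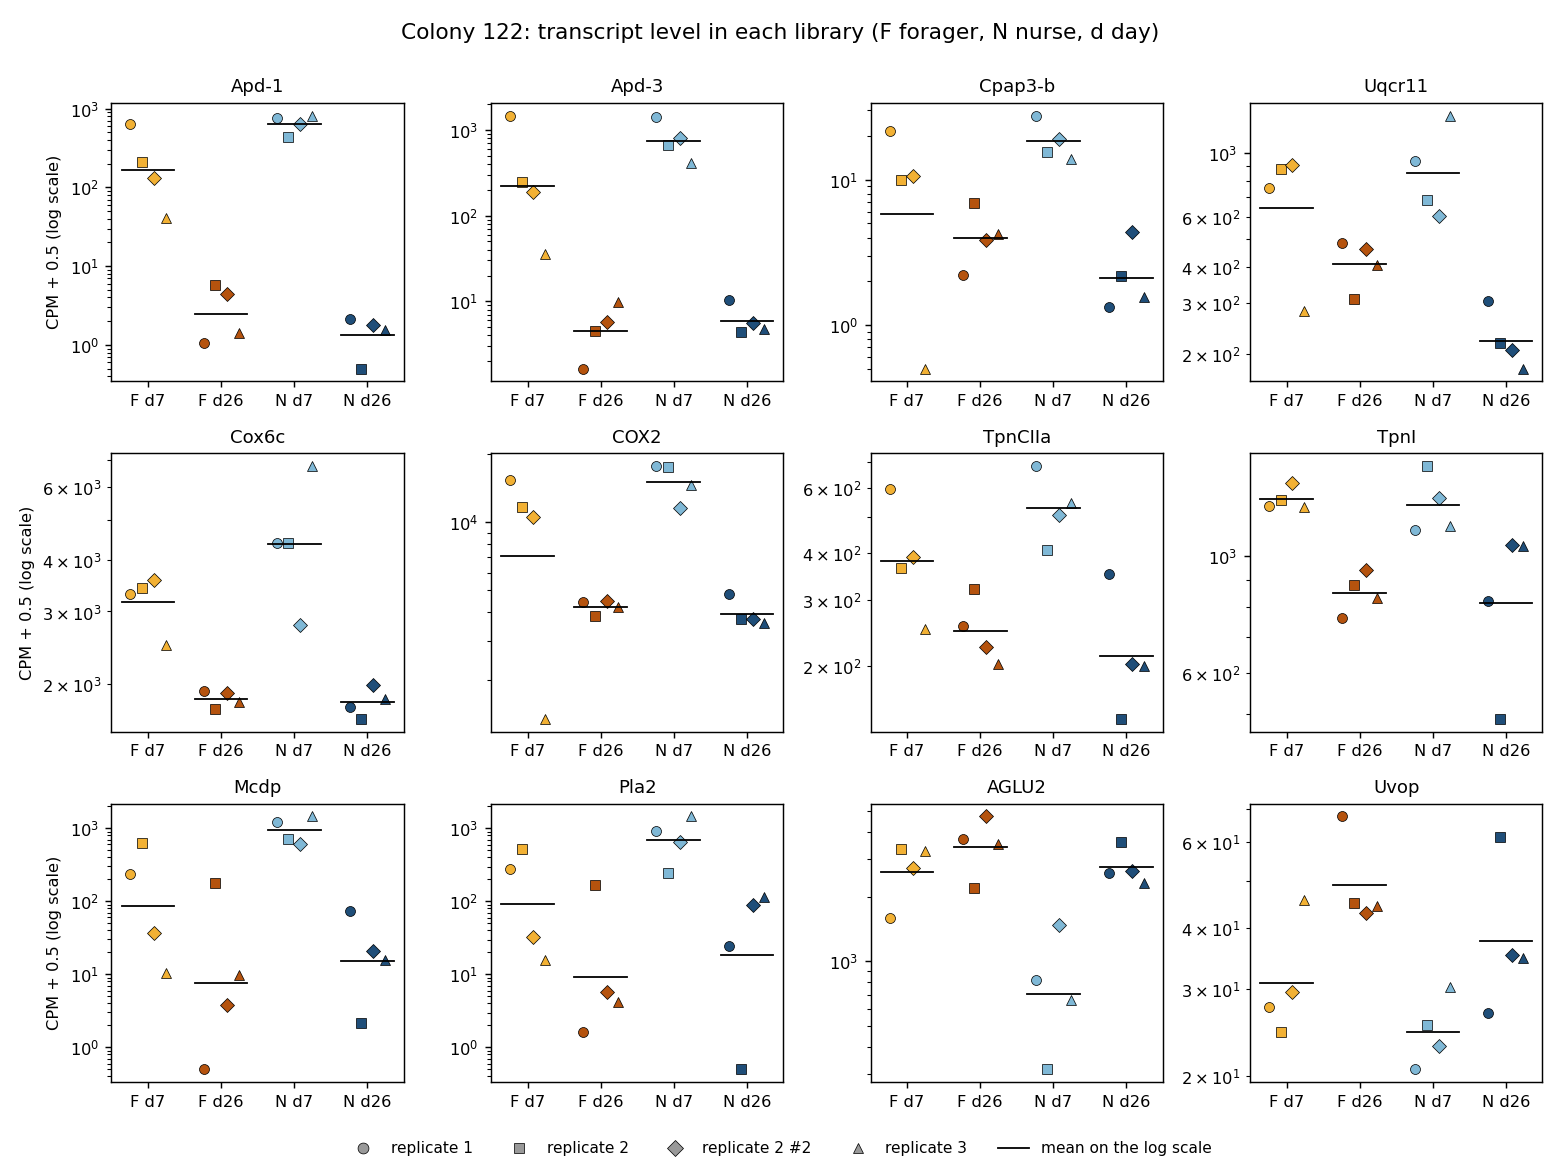
Level of 12 genes in each library of colony 122 as CPM + 0.5 on a log axis (F forager, N nurse, d day), with points by replicate number and lines at the group mean on the log scale. Apd-1, Apd-3, Cox6c and TpnI show no overlap between day 7 and day 26, while replicate 3 of foragers at day 7 lies among the day 26 libraries for Uqcr11 and Mcdp and below all of them for COX2 (1352 CPM).

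The 7 named genes that rose, by amounts near 2-fold or less, were AGLU2, Hbg2, Uvop, Blop, Obp4, FAR1 and NFRKB. Of 3 alpha-glucosidases, which split the sucrose of nectar, AGLU2 and Hbg2 rose and Hbg3 did not pass. AGLU2 held 820.3, 315, 1470.4 and 665 CPM in nurses at day 7 and 2559, 3597, 2626 and 2308 at day 26, with no overlap. In foragers, already high at day 7, it held 1586, 3325, 2704 and 3246 CPM at day 7 and 3696, 2198, 4704 and 3514 at day 26, and the days overlapped. The log2 fold change over both was 1.07 ± 0.23 (adjusted p = 0.00123), a call that was lost with the spread of colony 122 alone. Hbg2 rose by 1.00 ± 0.29 (adjusted p = 0.0287), a call that was lost in 8 of 24 alternative settings, among them the fit without the pair against their role. Hbg3 was at 0.94 ± 0.45 (adjusted p = 0.259).

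Of 3 opsins tested, the ultraviolet opsin Uvop and the blue opsin Blop rose and the long-wavelength opsin Lop1 did not pass. Uvop held 27.2, 24.0, 29.1 and 45.2 CPM in foragers at day 7 and 67.1, 44.6, 42.5 and 43.8 at day 26, and in nurses 20.1, 24.8, 22.4 and 29.9 at day 7 and 26.3, 60.8, 34.7 and 34.2 at day 26. The highest nurse library of day 26 was the one that goes against its role, and the change was 0.72 ± 0.18 (adjusted p = 0.00661). Blop rose by 0.91 ± 0.27 (adjusted p = 0.0353) and Lop1 was at 0.39 ± 0.22 (adjusted p = 0.374). Neither opsin call held without that pair of libraries, and the Blop call was lost in 12 of 24 settings. Obp4 was the 1 of 18 odorant-binding protein genes that rose (0.82 ± 0.25, adjusted p = 0.0343), where 1.84% of all genes did. Its forager libraries did not overlap between the days, with 164, 121, 163 and 236 CPM at day 7 and 503, 309, 369.7 and 370.0 at day 26. In nurses Obp4 held 125, 191, 213 and 154 CPM at day 7 and 113, 407, 205 and 200 at day 26. Among these, only the nurse library against its role lay above day 7. The Obp4 call was lost in 10 of 24 settings, among them the fit without the pair against their role. FAR1, a fatty acyl-CoA reductase on the list of cuticular lipid genes, rose by 0.81 ± 0.22 (adjusted p = 0.0117) and NFRKB, a chromatin protein gene, by 0.48 ± 0.12 (adjusted p = 0.00537). The FAR1 call was lost without 3 libraries and with the near-identical pair summed, and the NFRKB call with the spread of colony 122 alone.

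**Figure D3:**
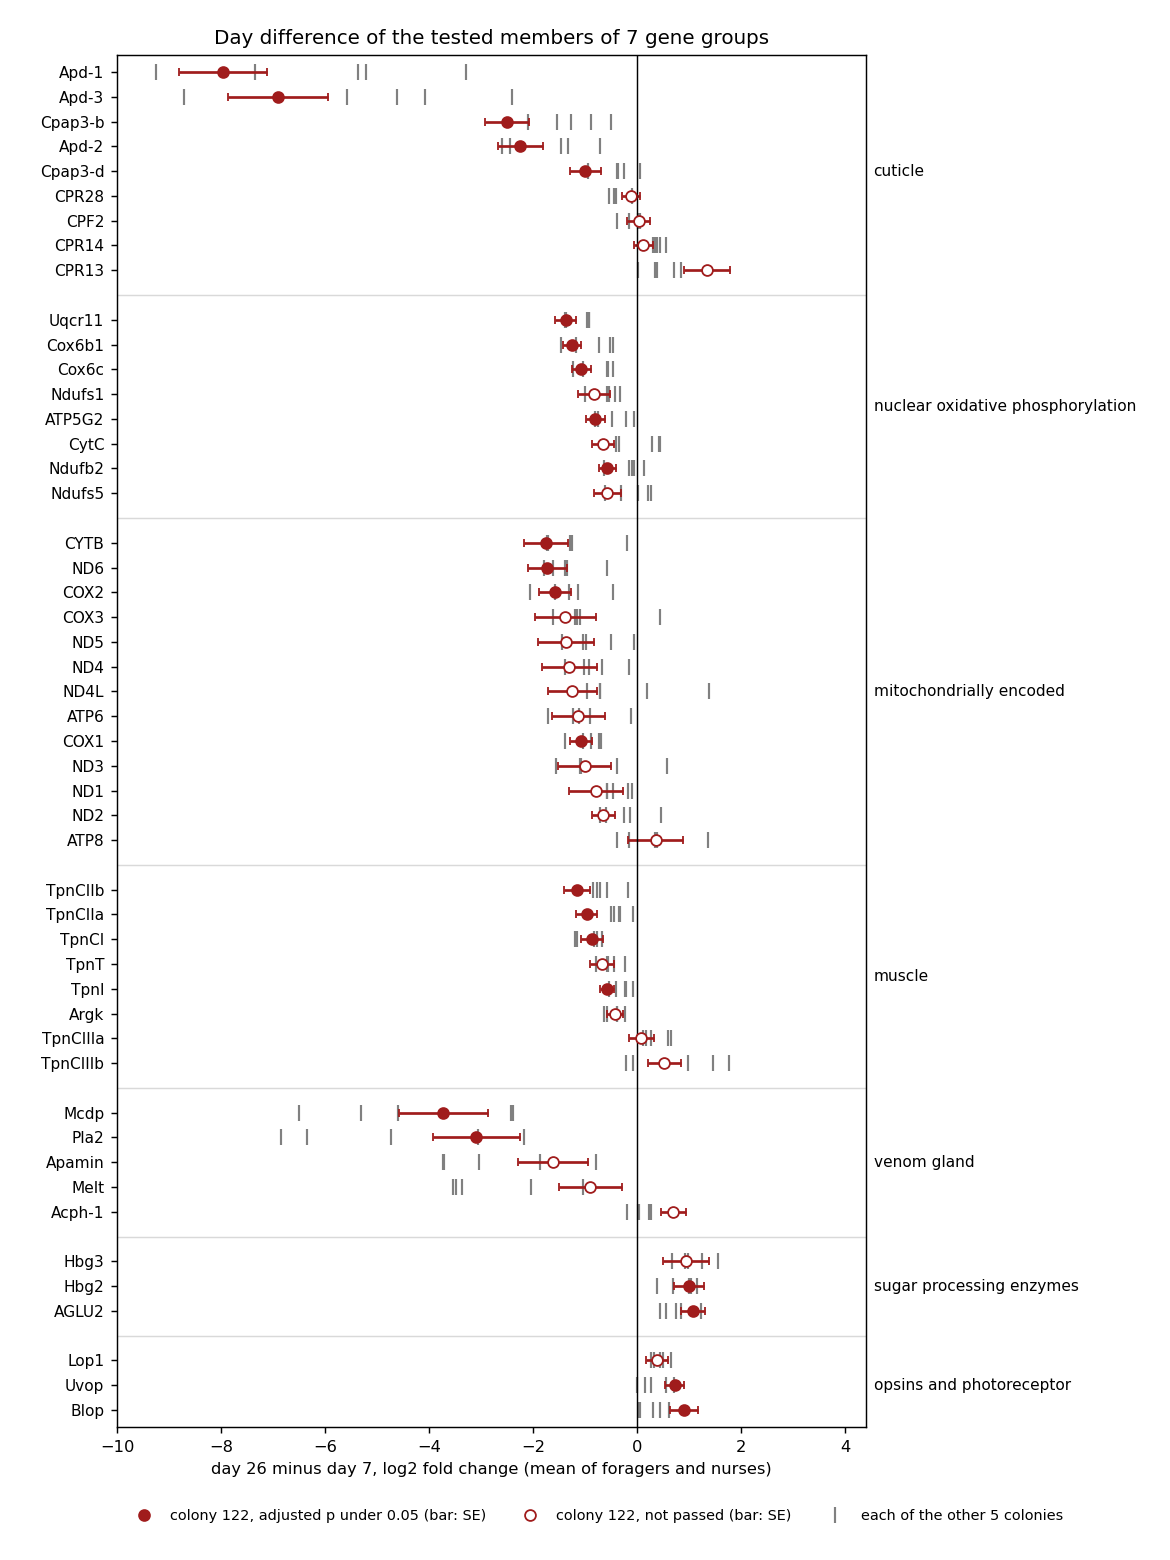
Log2 fold change of day 26 against day 7 for each tested member of 7 gene groups in colony 122 (circles with SE, filled where the adjusted p is under 0.05) and in each of the other 5 colonies (grey ticks). Apd-1 (-7.96) and Apd-3 (-6.91) lie farthest left and the 3 alpha-glucosidases and 3 opsins lie right of 0 in colony 122.

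Genes known only by a LOC number made up 307 of the 339 calls, and the reference used here gives no product for them. By the rule on size, 4 falls and 4 rises are given. LOC724464 held 20.1, 31.3, 23.0 and 21.2 CPM in nurses at day 7, and a single count over the 4 nurse libraries of day 26 against 122 counts at day 7. The ratio of those counts, scaled for depth, was 110.4 with an exact 95% interval of 19.5 to 4398, which covers counting error only. Over both roles it changed by -4.96 ± 0.66 (adjusted p = 9.54e-08). LOC102654146 fell by a like amount in foragers (-4.12) and nurses (-4.48), from 68.1, 87.5, 113 and 50.3 CPM in nurses at day 7 to 4.11, 4.46, 1.29 and 3.21 at day 26 (adjusted p over both = 2.04e-07). LOC678674 and LOC727165 changed by -3.05 ± 0.76 and -2.74 ± 0.52 (adjusted p = 0.00670 and 2.42e-04). Both calls were lost with the spread of colony 122 alone, and that of LOC678674 also without forager replicate 2 of day 7. LOC678674 was highest among foragers of day 26 in the library that goes against its role, at 53.8 CPM, as were Mcdp and Pla2.

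The 4 LOC rises were called in nurses and not in foragers, and their interaction of role and day did not pass. LOC726737 held 1.75, 4.32, 10.7 and 1.57 CPM in nurses at day 7 and 11.5, 139, 242 and 194 at day 26, with no overlap. In foragers it held 16.6, 80.7, 89.7 and 75.4 CPM at day 7 and 48.9, 12.2, 226 and 295 at day 26, with much overlap, and the change over both was 3.01 ± 0.66 (adjusted p = 0.00164). LOC725205 changed by 2.89 ± 0.70 (adjusted p = 0.00489), with 1 count in nurses at day 7 and 27 at day 26, most of them in the nurse library that goes against its role (12.8 CPM), without which its call was lost. LOC102655788 (2.43 ± 0.64, adjusted p = 0.0117) was high in nurses at day 26 only in the near-identical pair, with 4.94, 12.3, 229 and 201 CPM. LOC724993 (2.24 ± 0.60, adjusted p = 0.0148) showed the same pair at 49.4, 123, 1674 and 1393 CPM, and 1 forager library of each day was also high (1080.2 and 1676 CPM). Its call was lost without forager replicate 1 or without nurse replicate 2 #2 of day 26, and none of the 4 rises was called with the spread of colony 122 alone.

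Several gene groups linked to worker life history gave no call between the days in edgeR with all libraries. Over all genes the share called was 5.02%. The 9 royal jelly genes had a median of 1.12 and none passed, although 9 of 9 were above 0. Mrjp9 (0.66 ± 0.23, adjusted p = 0.0774) passed as a rise in 5 of 24 alternative settings, DESeq2 among them. Mrjp1, the main royal jelly protein, held 53359.6, 26871, 26155 and 59808 CPM in nurses at day 7 and 83638, 927, 54849.6 and 52738 at day 26, and its change was 1.29 ± 0.68 (adjusted p = 0.338). Mrjp3 was at 3.57 ± 1.13 in foragers and 0.12 ± 1.01 in nurses (adjusted p = 0.180 and 0.970). The summed level of the 9 genes was 2489 to 151221 CPM in nurses at day 26. In foragers it was 5194 to 19801 CPM at day 7 and 2720, 113458, 39628 and 58992 at day 26. Forager replicates 2 #2 and 3 of day 26 thus also lay above each forager library of day 7, beside the library against its role. The values of each role at day 26 include a library that goes against its role. The part of this gland RNA in the levels of other genes was not tested. Vg held 3987, 278, 489 and 7725 CPM in nurses at day 7 and 1749.8, 105, 776 and 1029 at day 26, and in foragers 84.5, 358, 222 and 171 at day 7 and 72.2, 2704, 479 and 254 at day 26. Its value was 0.15 ± 0.67 (adjusted p = 0.945), which turned to -0.53 without the pair against their role. Of the other 6 yolk and storage genes tested none passed. Vhdl, a lipid carrier of the blood, was at 2.70 ± 0.93 (adjusted p = 0.0745) and passed as a rise without any 1 of 4 libraries, and the storage protein Hex110 was at -0.76 ± 0.91 (adjusted p = 0.732).

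Of 6 immune genes tested none passed (median 0.55), where 5.02% of all genes did. Def1, the antimicrobial peptide defensin, held 4106, 3949, 3346 and 4255 CPM in nurses at day 7 and 6621, 1256, 19444 and 15921 at day 26, and the peptidoglycan recognition gene Pgrp-s2 held 1565, 1129, 534 and 552 at day 7 and 2927, 762, 7101 and 6128 at day 26. In both genes the highest nurse libraries of day 26 were the near-identical pair and the lowest was the one that goes against its role. Def1 was at 0.95 ± 0.47 and Pgrp-s2 at 1.42 ± 0.53 (adjusted p = 0.293 and 0.110), and the antimicrobial peptide Apid1 at 0.97 ± 0.60 (adjusted p = 0.436). Imidacloprid acts on nicotinic acetylcholine receptors, and 4 of 10 subunits were tested. None passed between the days: nAChRa8 was at 0.28 ± 0.18, nAChRa6 at -0.12 ± 0.40, nAChRa9 at 0.022 ± 0.23 and nAChRb2 at -0.20 ± 0.32 (adjusted p = 0.460, 0.921, 0.976 and 0.805). The levels of nAChRa8 were 10.0 to 25.0 CPM at day 7 and 20.6 to 32.2 at day 26. With standard errors of 0.18 to 0.40, changes of that size were not detectable.

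No call was made among 5 chemosensory proteins (median -0.33), 9 neuronal genes (0.21), 5 cytochrome P450 genes (0.39), 4 heat shock chaperones (0.28), 6 endocrine genes (0.068) or 3 genes matched as clock genes (-0.15). With 5.02% of all genes called, no call in lists this short is near the share over all genes. The heat shock cognate Hsc70-5 came nearest to a call (0.33 ± 0.11, adjusted p = 0.0752) and passed as a rise in 5 of 24 settings. E75 and Kr-h1, transcription factors that respond to ecdysone and juvenile hormone, were at 0.92 ± 0.38 and 0.87 ± 0.38 (adjusted p = 0.159 and 0.193). Among P450 genes, which include detoxification enzymes, CYP6AS13 was at 0.39 ± 0.15 and CYP6AQ1 at 0.53 ± 0.24 (adjusted p = 0.117 and 0.238). The clock gene Per was at -0.21 ± 0.20 (adjusted p = 0.656). The 1 germ line gene tested, vas, was at 0.71 ± 0.36 (adjusted p = 0.307).

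The day difference was called in more genes in nurses than in foragers, but the size of that gap depended on single libraries and the roles could not be told apart gene by gene. In nurses 393 genes passed (5.82%), of which 243 were lower (3.60%) and 150 higher (2.22%) at day 26. In foragers 9 genes passed (0.133%), all lower, among them Apd-1 and Apd-3 and 7 LOC genes. Without 3 libraries (the shallow one and the pair against their role) and with the near-identical pair summed, 109 genes passed in nurses and 40 in foragers. The nurse count was 200 with only the near-identical pair summed, and 200 to 219 without any 1 of nurse replicates 1 and 3 of day 7 and 2 #2 and 3 of day 26. The forager count was 65 without the shallow library of day 7, 47 in DESeq2 with all libraries, and 2 to 5 without any 1 of forager replicates 1 and 2 #2 of day 7 and 1, 2 and 3 of day 26. Of the 393 nurse genes, 308 (78.4%) had the same sign in foragers, against 54.2% of all genes, and their median change was 0.96 in nurses and 0.25 in foragers along the nurse direction. They were chosen in nurses, which favours larger values there. The test of the difference between roles (the interaction of role and day) gave no gene in edgeR, with 779 at an unadjusted p under 0.05 and a smallest adjusted p of 0.0970. DESeq2 gave 9 genes, the fit without the pair against their role 8, and leaving out 1 library gave up to 33 (nurse replicate 1 of day 26), 18 (nurse replicate 2 of day 7) and 11 (forager replicate 2 of day 7). LOC726289, picked out after its values were seen, was among the genes of each of these settings, with 2.03 ± 0.37 in nurses and -0.28 ± 0.36 in foragers in the main fit.

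In foragers Apd-1 and Apd-3 were the only calls among the gene lists, and in nurses calls came from several lists. Over all genes, 3.60% fell and 2.22% rose in nurses, and 0.133% fell in foragers. Apd-1 changed by -9.41 ± 1.30 in nurses and -6.51 ± 1.08 in foragers (adjusted p = 1.42e-06 and 3.40e-04). Of the 9 cuticle genes 4 fell in nurses and 2 in foragers, and of the 8 nuclear respiratory genes 5 fell in nurses, where Uqcr11 was at -1.97 ± 0.29 (adjusted p = 3.38e-06) and in foragers at -0.77 ± 0.28 (adjusted p = 0.268). Of the 13 mitochondrial genes 5 fell in nurses, the fifth being ND2 of complex I (-1.01 ± 0.31, adjusted p = 0.0344). Without the shallow library, Cox6b1, Uqcr11, COX1 and COX2 fell in foragers too. Of 8 muscle genes 3 fell in nurses: TpnCIIa, TpnCIIb and Argk, the arginine kinase that buffers ATP (-0.67 ± 0.21, adjusted p = 0.0441). Of 11 antioxidant genes 2 fell in nurses, where Sod1 joined Sod2 (-0.55 ± 0.15, adjusted p = 0.0124). Of 18 odorant-binding protein genes 2 fell in nurses, Obp7 and Obp17 (-2.57 ± 0.74 and -1.60 ± 0.44, adjusted p = 0.0248 and 0.0167), and 16 did not pass. Of 5 chemosensory proteins 1 fell in nurses, CSP3 (-0.78 ± 0.22, adjusted p = 0.0193). Est-6, an esterase, changed by -3.08 ± 0.82 in nurses (adjusted p = 0.0108), from 25.3, 14.0, 15.0 and 29.1 CPM to 5.76, 0.558, 1.29 and 2.14, and was at -0.13 in foragers. Of 5 venom genes 2 fell and 1 rose in nurses, the rise being Acph-1, an acid phosphatase (1.14 ± 0.33, adjusted p = 0.0257). Acph-1 held 12.2, 25.9, 21.4 and 15.7 CPM in nurses at day 7 and 26.3, 29.6, 59.2 and 52.4 at day 26, highest in the near-identical pair. Of 4 heat shock chaperones Hsc70-5 rose in nurses (0.57 ± 0.16, adjusted p = 0.0222), and of 3 alpha-glucosidases AGLU2 (1.76 ± 0.33, adjusted p = 2.00e-04).

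**Figure D4:**
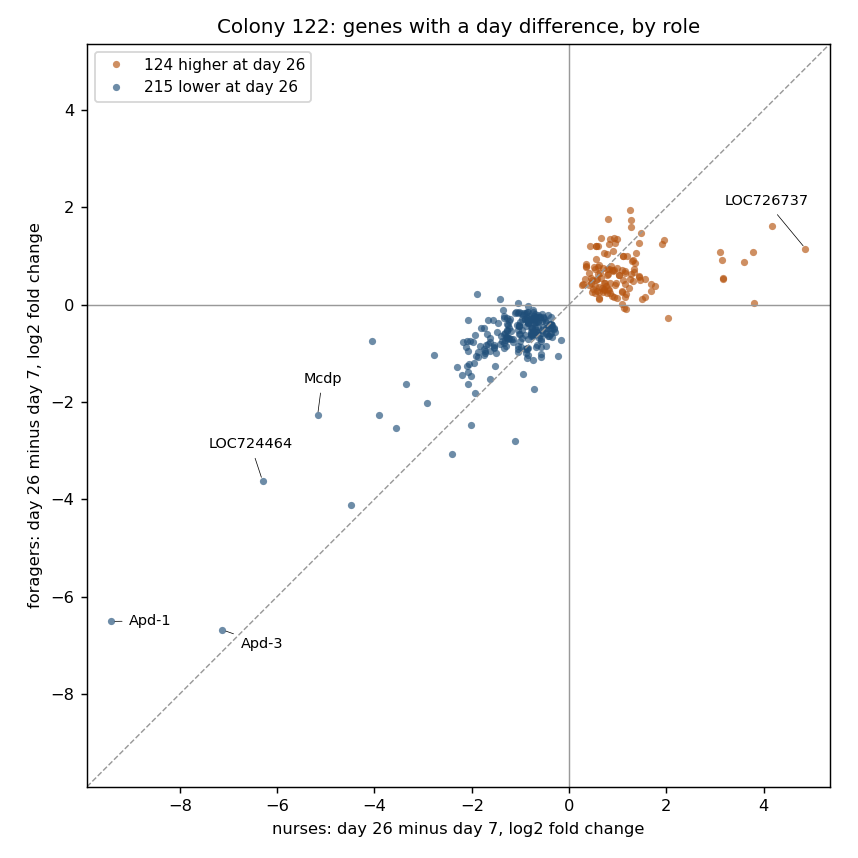
Each point is 1 of the 339 genes that differed between the days in colony 122, with its log2 fold change in nurses (x) and in foragers (y), where the dashed line marks equal change. Of the 215 lower genes 212, and of the 124 higher genes 121, have the same sign in both roles. The genes were chosen on the mean of both roles, which favours a shared sign, and over all genes 54.2% have the same sign. Of the 339 genes, 260 lie farther from 0 in nurses, a count for which no share over all genes was taken. No gene was called for the interaction of role and day in edgeR with all libraries.

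The same day difference was then read in the 76 fitted libraries of the other 5 colonies, which share hives and days with colony 122 but no library. Of the 215 genes that fell in colony 122, 205 were also lower on average in the others, and of the 124 that rose, 119 were higher, which makes 95.6% against 65.1% of all genes. At an adjusted p under 0.05, 1615 genes (23.9%) differed on average over the others, more libraries being averaged there. They include 256 of the 339 with the same sign, 75.5% of the calls of colony 122 and 15.9% of those of the others. In all 5 other colonies 152 of the falls and 80 of the rises had the same sign as in colony 122, as did 20.9% of all genes. The median size of the change was 0.78 in colony 122 and 0.42 in the others along the same direction, and the genes were chosen on the former. Within single colonies the same fit called 147, 480, 65, 133 and 395 genes between days in colonies 107, 109, 115, 127 and 137.

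No gene passed the test of a different day change in colony 122 than in the mean of the others in edgeR, with 614 at an unadjusted p under 0.05 and none in DESeq2. Without the pair of libraries against their role 8 genes passed, and without the nurse library of that pair alone 11. LOC724247 came nearest (adjusted p = 0.0525): it was lower in all 8 libraries of day 26 than in all of day 7 in colony 122 (-0.69 ± 0.13) and at -0.0361 in the others. It passed without the pair against their role (adjusted p = 0.0357). It also passed without nurse replicate 1 of day 7, or without either library of that pair (adjusted p = 0.0256 to 0.0362). Apd-1 changed by -7.96 in colony 122 and by -9.25 to -3.28 in the other colonies, and Apd-3 by -6.91 and -8.71 to -2.40. The fall of TpnCIIa was larger in colony 122 (-0.97) than in any other colony (-0.51 to -0.08), and that of Cpap3-b too (-2.50, others -2.11 to -0.50), but neither difference passed (adjusted p = 0.326 and 0.393). The venom gene Melt stood the other way, at -0.90 in colony 122 and -3.54 to -1.03 elsewhere (adjusted p of the difference = 0.391). LOC102655788 rose by 2.43 in colony 122 and was at -0.59 to 0.82 in the others (adjusted p of the difference = 0.275). The subunit nAChRa6 was at -0.12 in colony 122 and above 0 in each of the other 5 (0.14 to 1.63), which did not pass either (adjusted p = 0.637).

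**Figure D5:**
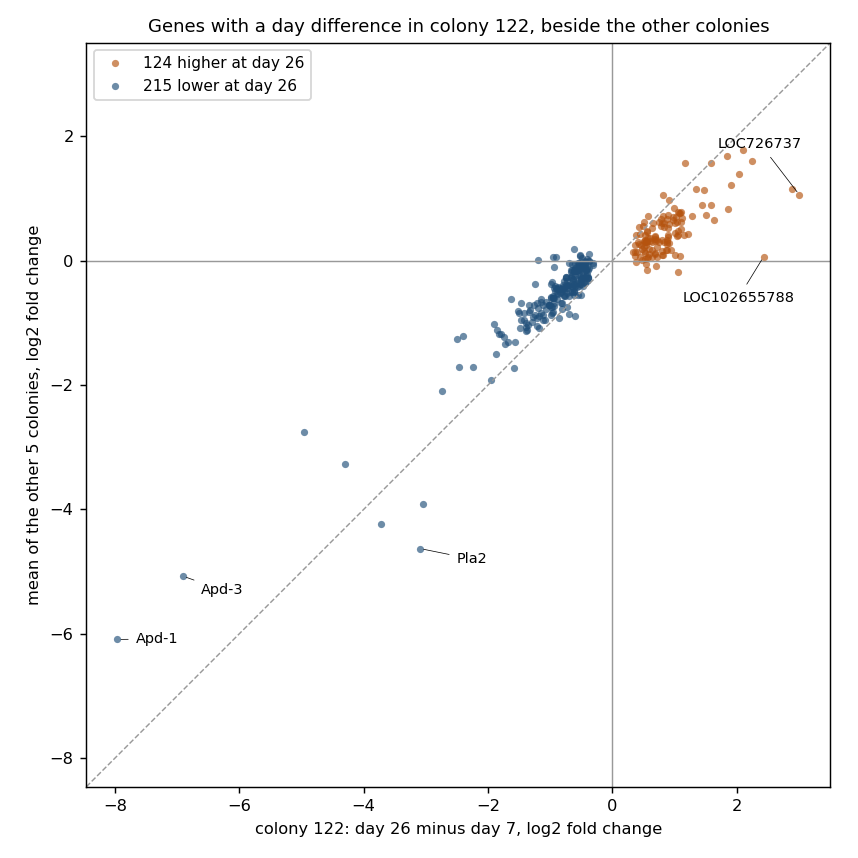
Log2 fold change between the days in colony 122 (x) and on average over the other 5 colonies (y) for the 339 genes that differed in colony 122, where the dashed line marks equal change. Of these, 324 have the same sign on both axes, and Pla2 (-3.09 and -4.63) lies below the line while LOC102655788 (2.43 and 0.062) lies far to the right of it.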

How the data were processed

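Members and gene lists were chosen with earlier results of these data known. The authors deposited counts, whole numbers of reads per gene with no normalization, and the submitters' processing notes name FastQC, HISAT2, SAMtools and DESeq2 without versions. The counting program, its strand setting and the genome build are, in the sources used here, not given; overlapping and antisense genes cannot be told apart, and no coordinates or sequences are printed. Of the 9935 genes, 9920 matched a RefSeq table (assembly Amel_HAv3.1) by symbol, 13 by locus tag and 2 not at all. In colony 122, 62.9 to 74.8% of reads were counted as not aligned, 12.6 to 18.0% as outside genes and 2.58 to 4.58% as aligned to several places. These stayed out of library totals, and genes with close copies are less certain.

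Genes were kept with filterByExpr at a minimum count of 10, which left 6753. Counts were scaled by TMM and fitted with edgeR 4.0.16 (quasi-likelihood, R 4.3.3) as 24 means of colony, role and day over 92 libraries, which share 1 estimate of the spread (68 residual degrees of freedom). A library of colony 107 with under 10% of the median count was left out. The 3 samples of the labels without a column were not analysed here. Contrasts were day 26 minus day 7 over both roles, in each role, their interaction, and the difference from the mean of the other 5 colonies, with Benjamini-Hochberg adjustment over all genes. Library measures were compared by a 2-sided exact permutation test within roles (4900 arrangements, smallest p 0.000408). Named genes were the 10 largest rises and falls with a name and the 4 with a LOC number, among calls with a mean of at least 5 CPM and 1 sign in both roles, with up to 4 members per list and a fixed set of marker genes. Only 7 named rises met this. Alternatives were DESeq2 size factors, DESeq2 1.42.0, no filter, a replicate block, the near-identical pair summed, colony 122 alone and each library left out. For colony 122 alone the filter and TMM were redone. Its value over both roles came from a model of role plus day, and its values by role from the 4 group means. After the libraries were seen, fits without the pair against their role and without 3 libraries were added. Scripts were checked on simulated counts.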

Additional observations from a re-analysis of the deposited data

Results flagged for a closer look

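Among 152 groups of 4 libraries examined, 21 values lay farther from their group than Dixon's 95% critical value. The usual rate of about 1 group in 20 assumes normal values, which CPM not on a log scale need not follow, so no excess over chance is read from it. Many of the 21 values belong to the libraries that stand apart. In replicate 3 of foragers at day 7, the shallow library, ND6 (321.6 CPM) and CYTB (156 CPM) were lowest and LOC102655788 (40.2 CPM) and LOC724993 (1080.2 CPM) highest. In forager replicate 2 of day 26, which goes against its role, Vg (2704 CPM), Mcdp (179 CPM), Pla2 (168 CPM) and LOC678674 (53.8 CPM) were highest. In nurse replicate 2 of day 26, also against its role, nAChRa9 (181 CPM) and LOC725205 (12.8 CPM) were highest and LOC678674 (1.12 CPM) lowest.

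The remaining values were spread over other libraries. At day 26 they were COX2 in nurse replicate 1 (4799 CPM), Uvop in forager replicate 1 (67.1 CPM) and LOC724464 in forager replicate 2 #2 (4.65 CPM). At day 7 they were Apd-3 (1467 CPM) and LOC724464 (46.8 CPM) in forager replicate 1, LOC678674 in forager replicate 2 (282.5 CPM) and in nurse replicate 1 (387 CPM), and Hbg3 (1228 CPM) in nurse replicate 2 #2. Each of these was the highest of its group. The last 2 values, LOC724464 in nurse replicate 2 of day 26 (0.558 CPM) and LOC725205 in nurse replicate 2 #2 of day 7 (0.534 CPM), are 1 count each with the other 3 libraries at 0, so they follow from a single count and say nothing about the library.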

How the results depend on the processing

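Of 99 results, the day difference over both roles gave 339 genes, with 340 under DESeq2 size factors, 320 without a filter, 379 in DESeq2, 255 with the near-identical pair summed, 335 without the pair against their role, 233 without 3 libraries and with the pair summed, and 252 to 409 with 1 library left out. It was 135 with the spread of colony 122 alone (28 higher, 107 lower, so 20.7% higher against 36.6%), where nurses gave 164 and foragers 2. The forager count of 9 was 5 without a filter, 47 in DESeq2, 3 without the pair against their role, 40 without 3 libraries and 2 to 65 with 1 left out. The nurse count of 393 was 200 with the near-identical pair summed, 109 without 3 libraries and 200 to 578 with 1 left out (204 without replicate 2 #2 of day 26). The interaction, 0 genes, gave 9 in DESeq2, 8 without the pair against their role and 0 to 33 with 1 left out. The difference from the other colonies, 0 genes, gave 8 without that pair and 0 to 11 with 1 left out. The causes were not tested.

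The replicate numbers were not used to pair the samples in the main fit. Of 6 day pairs, 2 correlated above 0.1 in their deviations (-0.14 to 0.21). Both were nurse pairs, numbers 1 and 2, and were highest with their own number. Across 18 same-numbered pairs of libraries, pairs across roles included, the correlation was highest with the own number in 4. Whether libraries of 1 number share a unit such as a hive cannot be told from correlations over so few libraries. With the replicate block the counts were 317 over both roles, 3 in foragers, 392 in nurses, 0 for the interaction and 0 for the difference from the others, and nAChRa9 turned to -0.007.

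With 1 library left out, the share of mitochondrial counts differed by -5.21 to -3.71 points, the share not aligned by 1.86 to 3.29 points, and the counts on genes by -223533 to 57920 (57919.5 without forager replicate 2 of day 7, 7853 and 14774 without nurse replicate 2 #2 of day 7 and forager replicate 3 of day 26). Signs turned in genes that were not called. Vg was at -0.53 without the pair against their role, -0.48 without 3 libraries and -0.71 to 0.63 with 1 left out (-0.71 without forager replicate 2 of day 26, -0.12 without nurse replicate 1 of day 26, -0.045 and -0.033 without nurse replicates 2 and 2 #2 of day 7). nAChRa9 was at -0.21, -0.13 and -0.22 to 0.13 in the same settings (also -0.026, -0.025, -0.063, -0.10 and 0.099). Cryl1, matched to the clock list by spelling alone, was at 0.044 without 3 libraries. With 1 left out Cyp4g11 was at -0.18 to 0.032 (0.019 without the shallow library), Jhe at -0.73 to 0.0042 and PGRP-S3 at -0.0053 to 0.28. Of the called genes named, Apd-1, Apd-2, Apd-3, Cpap3-b, Uqcr11, Cox6b1, Cox6c, COX1, COX2, ND6, CYTB, TpnCIIa, TpnCIIb and TpnI passed in all 24 settings run, and Blop failed in 12, Obp4 in 10 and Hbg2 in 8. In the shallow library a gene at 0 may hold up to 15.1 CPM, so low genes of foragers at day 7 are poorly bounded.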
